A study of Homo sapiens with 60 samples.

Results

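The genes described here are 41 genes that type I interferon raises, with the signalling factors STAT2, IRF7 and IRF9 among them. They come from a list of symbols matched to the Ensembl gene identifiers of the count table. That list was chosen with earlier results of these data known. Counts of its called genes are therefore descriptions and not an independent test of the list. All 41 were found among the 60675 genes of the table, and all 41 passed the filter on low counts, which left 16608 genes to test. They were measured by RNA sequencing in HT29, a human cell line established from a colorectal adenocarcinoma, 24 h after treatment, in 60 libraries that form 20 groups of 3. The groups are wortmannin at 10 µM, a fungal inhibitor of phosphoinositide 3-kinases used as the positive control; water extracts of Zingiberis Rhizoma Recens (fresh ginger), Zingiberis Rhizoma (dried ginger), Pinelliae Tuber, Scutellariae Radix and Zizyphi Fructus at 20, 100 and 500 µg/mL; a water extract of Coptidis Rhizoma at 11.6, 58 and 290 µg/mL; and vehicle. The vehicle is 0.1% DMSO in the sample labels and 2% DMSO in the series text. These doses are called low, medium and high, and the series text sets the top dose of an extract that inhibits the cells at the concentration inhibiting by 20%, which applies to Coptidis Rhizoma.

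Levels are CPM, counts per 1e6 reads counted, on library sizes scaled with the TMM method, and changes are log2 changes from edgeR's quasi-likelihood test, each with an approximate standard error after ±. A gene was called when its p-value, adjusted by the Benjamini-Hochberg method over all genes tested in that comparison, was below 0.05. Separate cultures are not named for the 3 libraries of a group, and the p-values may therefore reflect technical spread only. Vehicle, wortmannin and 3 pairs of extracts carry different first parts in their sample codes (the gingers, Pinelliae Tuber and Scutellariae Radix, and Zizyphi Fructus and Coptidis Rhizoma). What separates a treatment from vehicle therefore cannot be told apart from what separates these code sets, while high against low dose lies inside 1 set.

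Type I interferons bind a receptor whose kinases JAK1 and TYK2 phosphorylate STAT proteins, STAT2 among them. Phosphorylated STAT2 joins IRF9 in a complex called ISGF3, which binds a short promoter sequence, the interferon-stimulated response element, and switches on a large set of genes that block entry, translation, replication or release of viruses. Colon epithelial cells express the receptors for type I and type III interferons and keep many of these genes at a low basal level without infection.

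Libraries held 11.1 to 34.4 M counts (M, 1e6). The cells carried the epithelial markers of the line in every library, with KRT8 at 5434 to 7993 CPM, KRT18 at 2955 to 4259 CPM and EPCAM at 449 to 664 CPM, while the intestinal factors CDX1 (0.435 to 2.07 CPM) and CDX2 (3.78 to 9.95 CPM) were low. Of 10 leukocyte markers, the defining genes PTPRC, CD3E, MS4A1, NKG7 and HLA-DRA held 26, 3, 0, 11 and 1 counts over all 60 libraries, whereas LYZ, CD14, ITGAM and CD68 were expressed. Markers of fibroblasts, endothelium and plasmacytoid dendritic cells summed to at most 3.74, 2.48 and 1.05 CPM in any library. The summed level of the 10 leukocyte markers, nearly all of it LYZ, was 2431 to 2491 CPM with wortmannin and 1757 to 1889 CPM with vehicle, and 1510 to 1545 CPM with Scutellariae Radix at the high dose against 1670 to 1816 CPM at the low dose. It was 1515 to 1632 CPM with Coptidis Rhizoma at the high dose and 1615 to 1848 CPM at the low dose, and its part in the results was not tested. Interferon transcripts themselves were scarce. IFNB1 held 29 counts in all libraries together, IFNL1 126, IFNL2 27, IFNL3 15, IFNA1 148 and IFNG 0, and of 9 ligand genes only IFNE, an interferon of epithelia, passed the filter (3.12 to 7.07 CPM). Of the IFNL1 counts, 41 fell in the 3 libraries of Coptidis Rhizoma high, against 7 in those of the low dose, and 7 in the wortmannin libraries, against 2 with vehicle.

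Replicate 3 of Zizyphi Fructus high, replicate 2 of dried ginger high and replicate 1 of both vehicle and fresh ginger low stood apart on the second principal component, which held 11.5% of the variance. Ribosomal protein genes took 5.85 to 7.57% of their counts, against at most 5.41% in the other libraries outside Coptidis Rhizoma high, where the share was 5.94 to 6.71%. Results that rest on these libraries are given with and without them.

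Per kilobase of exon, and averaged over the 6 low-dose groups, the basal level of the genes spanned a wide range. Highest were BST2 or tetherin, which holds budding virions at the cell surface, at 47.8 CPM per kb, the ubiquitin-like modifier ISG15 at 29.7 CPM per kb and IFI6, a small membrane protein that restrains cell death and viral replication, at 23.4 CPM per kb. Lowest were the ubiquitin ligase TRIM22 at 0.0447 CPM per kb, the growth restrictor SAMD9L at 0.0452 CPM per kb and RSAD2 or viperin, which makes a chain-terminating nucleotide, at 0.113 CPM per kb. Of the 3 factors, IRF7, which amplifies interferon gene transcription, stood at 10.3, IRF9 at 4.35 and STAT2 at 4.03 CPM per kb.

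Averaged over the 41 genes, the level in log2 (CPM + 0.5) was 4.90 ± 0.09 with wortmannin, 4.75 ± 0.04 with Coptidis Rhizoma at the high dose and 3.33 ± 0.11 with vehicle (mean ± SD, n = 3 each). It was 3.41 ± 0.12, 3.06 ± 0.08 and 2.76 ± 0.02 with Scutellariae Radix at the low, medium and high doses, 3.11 ± 0.07 with fresh ginger at the high dose and 3.17 ± 0.08 with dried ginger at the high dose. The libraries of wortmannin and of Coptidis Rhizoma high lay above every other library, and those of Scutellariae Radix high below every other. The wortmannin libraries did not overlap those of Coptidis Rhizoma high. The other 17 groups, vehicle among them, averaged 3.06 to 3.57, and in that order the libraries of each group overlapped with those of its neighbours. By gene, wortmannin was the highest of the 20 groups for 29 genes and Coptidis Rhizoma high for the other 12, and Scutellariae Radix high was the lowest for 37. The sum over the 41 genes was 2167 to 2399 CPM with wortmannin, 2051 to 2146 CPM with Coptidis Rhizoma high, 691 to 705 CPM with Scutellariae Radix high and 887 to 979 CPM with vehicle.

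**Figure D1:**
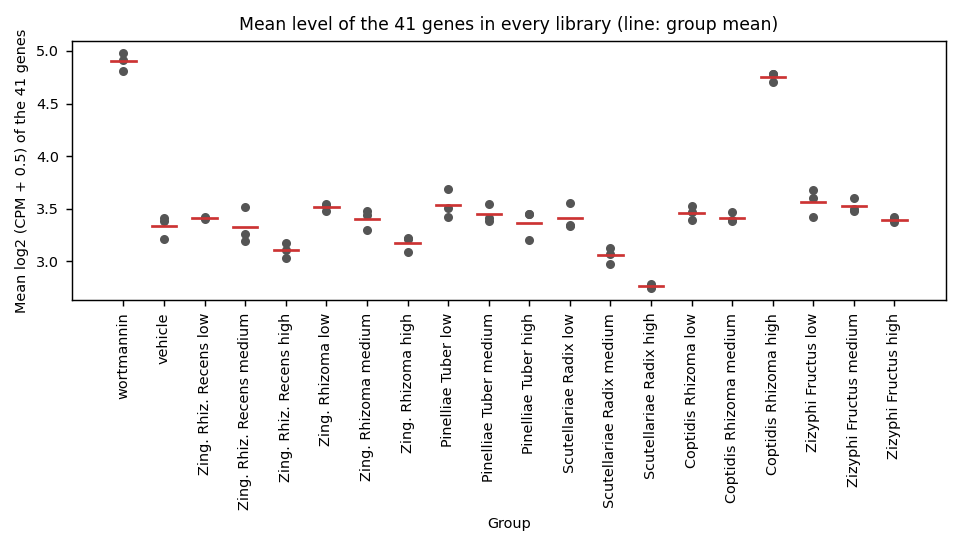
Mean log2 (CPM + 0.5) of the 41 interferon response genes (vertical axis) in each of 60 libraries (points), by group (horizontal axis), with a line at the mean of each group's 3 libraries. Wortmannin (4.81 to 4.99) and Coptidis Rhizoma high (4.70 to 4.78) stand above all other groups, and Scutellariae Radix high (2.74 to 2.79) stands below them.

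Wortmannin raised every gene of the list. Of the 41 genes, 41 were called higher and 0 lower, where 9.72% of all genes tested were called higher and 10.8% lower. The libraries of the groups did not overlap for any of the 41, all higher with wortmannin, which held for 24.8% of all genes. The median log2 change of the 41 was 1.45, from 0.36 for TRIM21 to 3.73 for IFI44L, and the median over all genes tested was 0.00. In these bulk libraries a larger share of responding cells and more RNA per responding cell cannot be told apart.

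The largest change was that of IFI44L (ENSG00000137959, chr1:78619922-78646145, plus strand, GRCh38), an interferon-induced gene with antiviral activity. It stood at 17.2, 14.8 and 18.9 CPM in the wortmannin libraries, against 1.48, 1.07 and 1.20 CPM with vehicle, a log2 change of 3.73 ± 0.27 (13.3-fold, adjusted p = 3.3e-15). The lowest wortmannin library was thus far above the highest vehicle library. Its neighbour and relative IFI44 stood at 25.7, 26.2 and 26.5 CPM with wortmannin, against 7.12, 5.71 and 6.20 CPM with vehicle (log2 change 2.00 ± 0.13, adjusted p = 4.06e-17).

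Among the dynamin-like GTPases that trap incoming viral particles, MX1 stood at 53.8, 49.2 and 59.6 CPM with wortmannin, against 9.86, 7.31 and 9.52 CPM with vehicle. Its log2 change was 2.57 ± 0.14 (adjusted p = 7.89e-20). MX2, beside it on chromosome 21, stood at 12.7, 10.9 and 13.6 CPM with wortmannin, against 1.15, 1.20 and 1.90 CPM with vehicle (log2 change 3.08 ± 0.22, adjusted p = 1.16e-15). In both genes all 3 treated libraries were several times above all 3 vehicle libraries.

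The oligoadenylate synthetases OAS1, OAS2 and OAS3, which sense double-stranded RNA and make the activator of RNase L, lie side by side on chromosome 12 and rose to different degrees. OAS2 stood at 41.5, 37.3 and 43.1 CPM with wortmannin, against 5.37, 4.67 and 6.33 CPM with vehicle (log2 change 2.85 ± 0.17, adjusted p = 2.05e-17). The log2 changes of OAS1, OAS3 and the catalytically inactive relative OASL, which aids RIG-I signalling, were 1.57 ± 0.09, 1.32 ± 0.10 and 0.91 ± 0.12 (adjusted p at most 2.63e-08).

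The IFIT family binds foreign RNA and blocks its translation, and its 4 genes on the list lie in 1 cluster on chromosome 10. IFIT1, which recognises RNA caps that lack the host's methylation, stood at 41.3, 33.3 and 47.1 CPM with wortmannin, against 8.21, 6.41 and 7.81 CPM with vehicle (log2 change 2.40 ± 0.13, adjusted p = 7.89e-20). IFIT5 and IFIT3, the partner that stabilises IFIT1, changed by 1.28 ± 0.11 and 1.05 ± 0.09. IFIT2, the family member linked to cell death, changed least and stood at 8.09, 7.96 and 6.46 CPM with wortmannin, against 4.05, 4.17 and 5.18 CPM with vehicle (log2 change 0.70 ± 0.14, adjusted p = 0.000229).

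The IFITM proteins sit in membranes and hinder fusion of enveloped viruses. IFITM1 stood at 6.51, 5.72 and 6.29 CPM with wortmannin, against 0.931, 0.367 and 1.02 CPM with vehicle (log2 change 3.01 ± 0.32, adjusted p = 2.64e-10). IFITM3, which acts in endosomes, stood at 53.9, 52.2 and 54.8 CPM with wortmannin, against 19.3, 14.4 and 15.7 CPM with vehicle (log2 change 1.66 ± 0.11, adjusted p = 1.38e-17). IFITM2 stood at 44.2, 50.4 and 46.9 CPM with wortmannin, against 38.8, 32.8 and 32.4 CPM with vehicle (log2 change 0.39 ± 0.07, adjusted p = 3.31e-05). The 3 genes are close copies of each other, and the annotated IFITM2 locus overlaps that of IFITM1 by 1767 bp on the same strand, so the division of reads among them is uncertain.

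XAF1, which counters the apoptosis inhibitor XIAP, stood at 9.11, 9.83 and 10.9 CPM with wortmannin, against 1.64, 0.968 and 0.786 CPM with vehicle (log2 change 3.11 ± 0.35, adjusted p = 1.89e-09). EPSTI1, an interferon-induced gene named for epithelial-stromal interaction, stood at 5.14, 4.36 and 4.36 CPM with wortmannin, against 0.876, 0.667 and 0.925 CPM with vehicle (log2 change 2.45 ± 0.30, adjusted p = 9.36e-09). Both were near 1 CPM with vehicle and clear of that level in all 3 treated libraries.

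For 3 of the genes with large changes the vehicle level rested on few reads. TRIM22 had 45, 40 and 38 counts with wortmannin, against 2, 5 and 5 counts with vehicle (log2 change 3.48 ± 0.43, adjusted p = 1.14e-08). SAMD9L had 38, 35 and 34 counts with wortmannin, against 3, 3 and 6 counts with vehicle (log2 change 3.27 ± 0.42, adjusted p = 4.39e-08). RSAD2 had 57, 51 and 60 counts with wortmannin, against 10, 11 and 15 counts with vehicle (log2 change 2.36 ± 0.37, adjusted p = 2.69e-06). The groups are apart in all of them, but the size of the fold is loosely fixed. DESeq2 gave no adjusted p for TRIM22 and SAMD9L in this comparison. RSAD2 overlaps CMPK2, a mitochondrial nucleotide kinase, by 830 bp on the opposite strand, and since the strand setting of the counting is not stated, reads of the pair may be mixed; CMPK2 changed by 2.26 ± 0.20 (adjusted p = 1.87e-12).

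ISG15, which is conjugated to proteins in the way of ubiquitin, stood at 66.7, 59.9 and 69.9 CPM with wortmannin, against 37.4, 27.2 and 24.3 CPM with vehicle (log2 change 1.09 ± 0.17, adjusted p = 4.45e-06). Its conjugating enzyme UBE2L6 stood at 5.70, 5.25 and 6.18 CPM with wortmannin, against 0.821, 0.834 and 0.694 CPM with vehicle (log2 change 2.80 ± 0.28, adjusted p = 6.16e-11). HERC6, the ligase for ISG15 in mouse, changed by 2.06 ± 0.11 (adjusted p = 7.89e-20). USP18, which removes ISG15 and also restrains the interferon receptor, stood at 11.2, 10.6 and 12.4 CPM with wortmannin, against 4.05, 3.804 and 4.21 CPM with vehicle (log2 change 1.45 ± 0.12, adjusted p = 1.06e-13).

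The factors IRF9, IRF7 and STAT2 rose less than most of the list. IRF9 stood at 39.0, 36.3 and 33.8 CPM with wortmannin, against 16.7, 12.7 and 15.6 CPM with vehicle (log2 change 1.24 ± 0.11, adjusted p = 4.6e-12). IRF7 stood at 48.3, 46.2 and 46.5 CPM with wortmannin, against 29.4, 25.9 and 22.7 CPM with vehicle (log2 change 0.80 ± 0.10, adjusted p = 8.61e-09). STAT2 stood at 34.9, 34.8 and 36.2 CPM with wortmannin, against 21.1, 20.7 and 21.4 CPM with vehicle (log2 change 0.70 ± 0.08, adjusted p = 1.72e-09). All 3 changes lay below the median of the list.

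The remaining genes were called higher as well. The RNA sensor IFIH1 (MDA5) changed by 1.21 ± 0.08 and the helicase DDX60 by 1.88 ± 0.14. PARP14, a mono-ADP-ribosyltransferase, changed by 1.20 ± 0.09, PARP9 by 1.41 ± 0.08 and its partner ubiquitin ligase DTX3L by 0.75 ± 0.07; PARP9 and DTX3L overlap by 340 bp on opposite strands. IFI27 and IFI6, small membrane proteins, changed by 1.64 ± 0.16 and 1.91 ± 0.25, SAMD9 by 1.15 ± 0.11 and IFI35 by 0.88 ± 0.10. PLSCR1, a phospholipid scramblase, changed by 0.92 ± 0.06, and SP100, a component of nuclear bodies, by 0.90 ± 0.07. BST2 (0.53 ± 0.10) and TRIM21, a cytosolic antibody receptor (0.36 ± 0.08), were among the least changed. IFI6 stood at 66.9, 66.3 and 87.7 CPM with wortmannin, against 29.02, 14.1 and 14.4 CPM in vehicle replicates 1, 2 and 3, and the vehicle library that stands apart was the highest of its group.

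With the mean of the 6 low-dose extract groups in place of vehicle, 41 genes were called, and leaving out the 4 libraries that stand apart also gave 41. Set against that low-dose mean, vehicle itself gave 0 called genes of the list (0.0783% of all genes), with 12 at an unadjusted p under 0.05 and a median log2 difference of -0.16 (vehicle minus low doses). DESeq2 called 0 there as well, and edgeR without the low-count filter called 9.

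**Figure D2:**
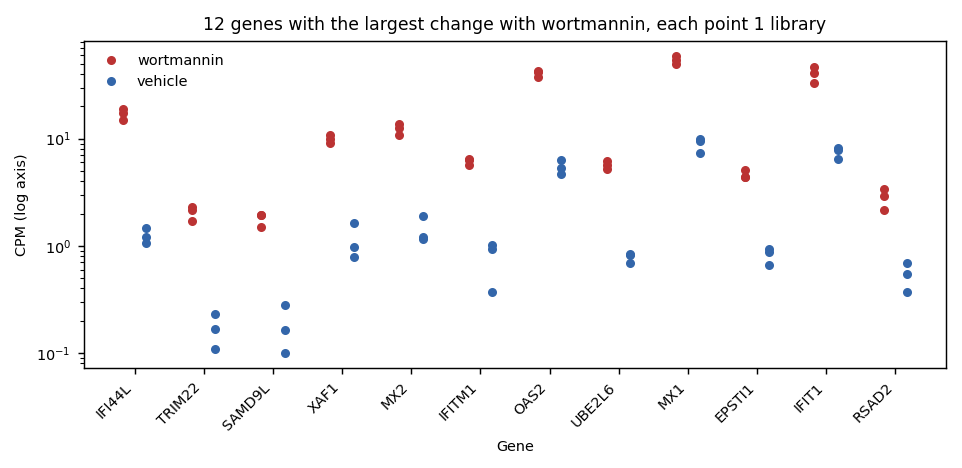
CPM on a log axis of the 12 genes with the largest log2 change under wortmannin, each point 1 library, wortmannin at the left of each pair and vehicle at the right. In every gene the 3 wortmannin libraries lie above the 3 vehicle libraries, for IFI44L at 14.8 to 18.9 CPM against 1.07 to 1.48 CPM.

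The promoters of the genes were read for the sequence that ISGF3 binds. In the RefSeq promoter table (GRCh38.p14, 250 bases before to 50 after the start), 33 of the 41 genes had an entry. The response element was taken as GAAA, any 2 bases and GAAA. This motif, searched on both strands, occurred in 21 of these 33 promoters (63.6%), against 1255 of all 35116 promoters (3.57%). The gamma-activated site TTCNNNGAA, a palindrome of the interferon gamma response, occurred in 10 of 33 (30.3%), against 7.66% of all promoters. For the list a single entry per gene was read, whereas the shares of all promoters count every entry. The list was chosen as genes that interferon raises, so a high share of the first motif could be foreseen. Its part in the changes seen here was not tested. Genes with the first motif had a median log2 change of 1.32 with wortmannin and the 12 without it 1.81. The promoters of the 5 genes with the largest wortmannin change that hold the motif follow, 5′ to 3′ on the strand of the gene, with matches in capitals.
IFI44L (chr1:78620198-78620497, plus strand): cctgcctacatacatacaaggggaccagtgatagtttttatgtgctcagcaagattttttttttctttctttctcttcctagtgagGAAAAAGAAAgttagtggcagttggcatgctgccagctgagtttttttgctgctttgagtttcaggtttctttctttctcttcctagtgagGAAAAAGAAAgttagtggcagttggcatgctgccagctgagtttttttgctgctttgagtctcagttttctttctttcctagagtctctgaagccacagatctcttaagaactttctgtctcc
IFITM1 (chr11:313790-314089, plus strand): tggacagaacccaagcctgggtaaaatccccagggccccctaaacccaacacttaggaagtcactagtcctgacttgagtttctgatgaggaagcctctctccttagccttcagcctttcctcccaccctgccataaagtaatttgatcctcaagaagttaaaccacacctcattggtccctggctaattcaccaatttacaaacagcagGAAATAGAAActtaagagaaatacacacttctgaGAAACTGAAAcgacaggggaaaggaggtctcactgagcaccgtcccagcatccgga
MX1 (chr21:41420308-41420607, plus strand): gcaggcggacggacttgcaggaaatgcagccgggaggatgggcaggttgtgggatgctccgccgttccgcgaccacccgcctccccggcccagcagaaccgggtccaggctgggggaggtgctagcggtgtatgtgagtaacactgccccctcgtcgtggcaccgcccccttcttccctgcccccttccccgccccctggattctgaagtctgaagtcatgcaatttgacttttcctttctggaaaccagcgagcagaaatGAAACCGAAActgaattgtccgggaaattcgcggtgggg
EPSTI1 (chr13:42992192-42992491, minus strand): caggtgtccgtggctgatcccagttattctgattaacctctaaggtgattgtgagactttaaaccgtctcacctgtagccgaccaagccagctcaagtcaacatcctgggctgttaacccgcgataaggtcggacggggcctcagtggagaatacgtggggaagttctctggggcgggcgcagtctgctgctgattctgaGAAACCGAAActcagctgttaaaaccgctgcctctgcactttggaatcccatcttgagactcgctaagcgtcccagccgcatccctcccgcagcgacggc
IFIT1 (chr10:89392373-89392672, plus strand): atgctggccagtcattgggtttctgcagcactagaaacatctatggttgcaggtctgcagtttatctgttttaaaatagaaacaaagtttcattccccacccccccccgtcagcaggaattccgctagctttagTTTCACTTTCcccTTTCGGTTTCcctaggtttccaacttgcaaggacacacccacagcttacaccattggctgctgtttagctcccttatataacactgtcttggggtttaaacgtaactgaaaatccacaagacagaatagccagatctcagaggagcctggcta
IFI44L holds GAAAAAGAAA in 2 copies, 164 and 73 bases before the start. The matches of IFITM1 begin 40 and 6 bases before the start, that of EPSTI1 50 bases before it and that of MX1 11 bases after it. In IFIT1 both matches, which begin 116 and 103 bases before the start, lie on the other strand. A match of letters is a description and not a measured binding site.

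Coptidis Rhizoma, the rhizome of goldthread, raised the same list at its high dose. Between the high and low doses 41 of the 41 genes were called higher and 0 lower, where 27.1% of all genes tested were called higher and 25.3% lower. Libraries did not overlap for any of the 41, all higher at the high dose, against 38.9% of all genes. The median log2 change was 1.33, from 0.31 for IFITM2 to 2.90 for SAMD9L, with a median of 0.00 over all genes. Between medium and low dose 0 genes were called (0.945% of all genes called higher and 0.355% lower; 3 of the 41 at an unadjusted p under 0.05, DESeq2 0).

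UBE2L6 stood at 9.06, 7.96 and 6.63 CPM at the high dose, against 1.36, 1.28 and 1.29 CPM at the low dose (log2 change 2.49 ± 0.25, adjusted p = 2.5e-12). XAF1 stood at 9.39, 9.01 and 8.005 CPM at the high dose, against 1.33, 1.52 and 1.17 CPM at the low dose (log2 change 2.61 ± 0.32, adjusted p = 2.64e-09). MX2 stood at 10.6, 9.76 and 8.11 CPM at the high dose, against 1.64, 1.99 and 1.87 CPM at the low dose (log2 change 2.27 ± 0.21, adjusted p = 1.76e-13). In these genes the lowest high-dose library exceeded the highest low-dose library several times over. IFI44L stood at 9.43, 8.49 and 7.48 CPM at the high dose, against 2.03, 1.79 and 1.40 CPM at the low dose (log2 change 2.18 ± 0.25, adjusted p = 3.36e-10). EPSTI1 stood at 3.97, 3.87 and 3.91 CPM at the high dose, against 0.873, 0.922 and 0.546 CPM at the low dose (log2 change 2.21 ± 0.29, adjusted p = 4.62e-09).

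The genes of lowest basal level again rested on few reads at the low dose. SAMD9L had 38, 56 and 47 counts at the high dose, against 9, 6 and 5 counts at the low dose (log2 change 2.90 ± 0.37, adjusted p = 4.55e-09). RSAD2 had 50, 55 and 66 counts at the high dose, against 6, 17 and 6 counts at the low dose (log2 change 2.67 ± 0.38, adjusted p = 4.11e-08). TRIM22 had 18, 30 and 20 counts at the high dose, against 6, 11 and 2 counts at the low dose (log2 change 1.94 ± 0.42, adjusted p = 9.3e-05). No library overlapped with the other group in any of them.

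The factors rose at the high dose. IRF7 stood at 75.4, 73.4 and 61.5 CPM, against 26.6, 27.0 and 25.1 CPM at the low dose (log2 change 1.33 ± 0.09, adjusted p = 2.81e-17). IRF9 stood at 47.1, 44.9 and 43.4 CPM, against 17.8, 16.0 and 16.2 CPM at the low dose (log2 change 1.35 ± 0.11, adjusted p = 4.05e-15), and STAT2 changed by 0.47 ± 0.08 (adjusted p = 7.19e-07). The change of IRF9 was close to the median of the list and that of STAT2 well below it. IFIT2 stood at 16.8, 18.5 and 20.2 CPM at the high dose, against 4.40, 5.12 and 4.29 CPM at the low dose (log2 change 1.92 ± 0.13, adjusted p = 2.89e-18). USP18 changed by 1.52 ± 0.11 and ISG15 by 0.86 ± 0.17, and IFITM1, IFITM2 and IFITM3 by 0.99 ± 0.31, 0.31 ± 0.07 and 1.09 ± 0.10 (adjusted p at most 0.00566). IFI6, at 38.8, 36.5 and 30.5 CPM against 21.2, 22.1 and 19.2 CPM at the low dose (log2 change 0.67 ± 0.25, adjusted p = 0.0215), was not called without high replicate 1 or 2 or low replicate 3 (adjusted p 0.0541 to 0.0717).

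The rise lay between the medium and the high dose. High against medium called 40 of 41 genes higher (24.4% of all genes called higher), all but IFITM2 (log2 change 0.12 ± 0.07, adjusted p = 0.164), with a median of 1.28. Against vehicle, 41 genes were called higher at the high dose (26.6% of all genes called higher), and 1, IFIT2, at the medium dose (3.63% of all genes), where its libraries stood at 6.72, 4.88 and 6.43 CPM, against 4.05, 4.17 and 5.18 CPM with vehicle, and overlapped. At the high dose against vehicle IFITM2 and IFI6 were not called without vehicle replicate 2 or 3, nor IFITM2 without high replicate 1 (adjusted p 0.0528 to 0.14).

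Wortmannin and Coptidis Rhizoma high raised the same 41 genes, each against a comparison group of its own. The 2 groups lie in different code sets, and their direct comparison was chosen after these values were seen. It called 16 genes higher with wortmannin and 7 lower, where 26.6% of all genes tested were called higher and 27.3% lower. Libraries did not overlap for 18 genes higher with wortmannin and 8 lower, against 29.4% and 33.6% of all genes. In both directions together the list thus differed about as often as all genes did. The differences below are those of single genes and not a trait of the list. Higher with wortmannin were IFITM1 (log2 difference 1.49 ± 0.27, adjusted p = 6.81e-06), TRIM22 (1.21 ± 0.32), IFI6 (1.09 ± 0.24), IFI44L (1.03 ± 0.22), OAS2 (0.79 ± 0.15), PARP9 (0.69 ± 0.08), IFI44 (0.68 ± 0.12) and IFIT1 (0.65 ± 0.12). PARP9 stood at 110.4, 105 and 113 CPM with wortmannin, against 67.7, 70.1 and 69.3 CPM with Coptidis Rhizoma, with no overlap.

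Lower with wortmannin were IFIT2 (log2 difference -1.28 ± 0.13, adjusted p = 1.93e-12), OASL (-0.74 ± 0.10), IRF7 (-0.55 ± 0.09), IFIT3 (-0.43 ± 0.08), IFIT5 (-0.39 ± 0.10), USP18 (-0.31 ± 0.10) and IRF9 (-0.29 ± 0.11). OASL stood at 12.8, 10.9 and 13.8 CPM with wortmannin, against 21.6, 20.6 and 21.2 CPM with Coptidis Rhizoma. Within the chromosome 10 cluster, IFIT1 was thus higher with wortmannin, and IFIT2, IFIT3 and IFIT5 higher with Coptidis Rhizoma. USP18 and IRF9 lost their calls without wortmannin replicate 2 or Coptidis Rhizoma high replicate 1, and IRF9 without wortmannin replicate 3 (adjusted p 0.0515 to 0.0932).

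**Figure D3:**
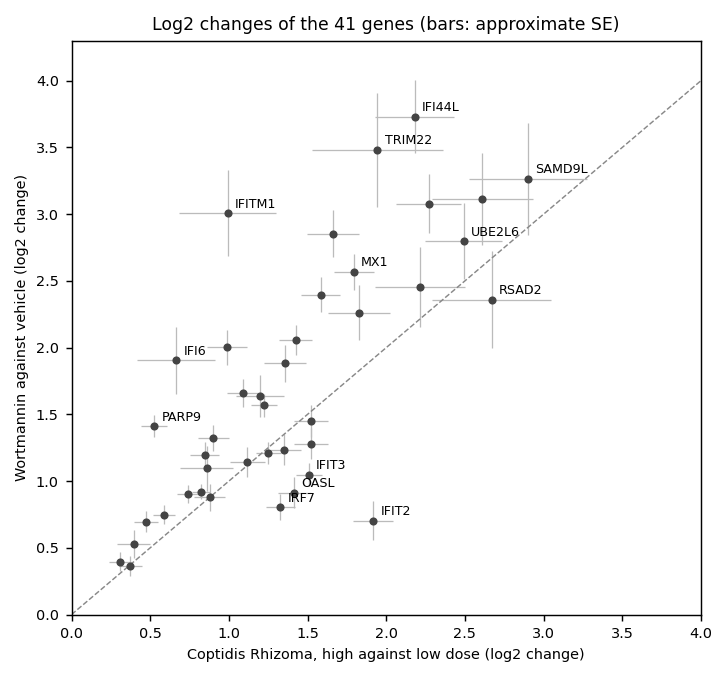
Log2 change with wortmannin against vehicle (vertical axis) and with Coptidis Rhizoma at the high against the low dose (horizontal axis) for the 41 genes, with bars of 1 approximate standard error and a dashed line of equal change. All points lie above 0 on both axes; IFITM1 and IFI44L lie above the line, and IFIT2 (0.70 with wortmannin and 1.92 with Coptidis Rhizoma), OASL and IRF7 below it.

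Scutellariae Radix, the root of skullcap, lowered the list. Between the high and low doses 34 of the 41 genes were called lower and 0 higher, where 8.42% of all genes tested were called lower and 7.92% higher. The libraries did not overlap for 38 genes, all lower at the high dose, against 27.5% of all genes. The median log2 change was -0.62, against -0.01 over all genes, and it ranged from -2.61 for XAF1 to 0.15 for IFIT2. The group means were lower at each step of the dose, low to medium to high, for 37 of the 41 genes.

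MX1 stood at 3.38, 3.52 and 3.32 CPM at the high dose, against 9.71, 8.43 and 12.9 CPM at the low dose (log2 change -1.57 ± 0.17, adjusted p = 2.37e-10). OAS2 stood at 2.11, 1.71 and 2.21 CPM at the high dose, against 6.29, 5.27 and 7.82 CPM at the low dose (log2 change -1.62 ± 0.22, adjusted p = 2.75e-07). CMPK2 stood at 0.602, 0.673 and 0.651 CPM at the high dose, against 2.58, 1.58 and 3.37 CPM at the low dose (log2 change -1.93 ± 0.29, adjusted p = 8.96e-07). The 3 high-dose libraries of each gene were close together and below all low-dose libraries. IRF9 stood at 6.42, 7.67 and 6.97 CPM at the high dose, against 13.8, 13.8 and 18.0 CPM at the low dose (log2 change -1.08 ± 0.13, adjusted p = 5.07e-09), the largest change of the 3 factors. STAT2 changed by -0.36 ± 0.08 (adjusted p = 0.000774) and IRF7 by -0.32 ± 0.10 (adjusted p = 0.0215); IRF7 was not called without high replicate 1 or 3 or low replicate 2 or 3 (adjusted p 0.0582 to 0.0859).

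The largest log2 changes were those of genes of low level and rest on few counts. XAF1 had 5, 0 and 7 counts at the high dose, against 4, 24 and 37 counts at the low dose (log2 change -2.61 ± 0.63, adjusted p = 0.00192). IFITM1 had 1, 4 and 8 counts at the high dose, against 13, 22 and 27 counts at the low dose (log2 change -2.44 ± 0.49, adjusted p = 0.000196). IFI44L had 7, 3 and 9 counts at the high dose, against 13, 23 and 51 counts at the low dose (log2 change -2.38 ± 0.45, adjusted p = 8.93e-05). In CPM no high-dose library reached the lowest low-dose library in any of them. For XAF1 this separation is narrow and rests on library size. Its low-dose library with 4 counts held 16.7 M counts in total, and the high-dose library with 7 held 30.7 M. UBE2L6 changed by -1.90 ± 0.42 (adjusted p = 0.000603), SAMD9L by -2.01 ± 0.61 (adjusted p = 0.0155) and EPSTI1 by -1.62 ± 0.50 (adjusted p = 0.0188). SAMD9L and EPSTI1 were not called without high replicate 1 or 3 or low replicate 3 (adjusted p 0.0606 to 0.111), and without any 1 library of the 6 the count of 34 was 26 to 33.

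The IFITM and ISG15 genes show the spread within the list. IFITM3 stood at 7.99, 8.08 and 10.1 CPM at the high dose, against 16.9, 17.05 and 19.5 CPM at the low dose (log2 change -0.97 ± 0.12, adjusted p = 5.14e-09), while IFITM2 stood at 26.0, 28.6 and 28.1 CPM, against 31.7, 30.3 and 32.5 CPM at the low dose (log2 change -0.14 ± 0.07, adjusted p = 0.225). USP18 changed by -0.47 ± 0.13 (adjusted p = 0.00738), and was not called without low replicate 3 (adjusted p = 0.078). ISG15 stood at 21.1, 21.3 and 18.1 CPM at the high dose, against 23.2, 26.2 and 30.4 CPM at the low dose, and missed the threshold (log2 change -0.36 ± 0.18, adjusted p = 0.198). The other genes that missed it were IFITM2, TRIM22 (-1.64 ± 0.70), IFI6 (-0.58 ± 0.28), RSAD2 (-0.56 ± 0.47), OASL (0.10 ± 0.12) and IFIT2 (0.15 ± 0.15).

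In their group means, OASL and IFIT2 took another course over the doses. OASL stood at 6.17, 5.70 and 7.93 CPM at the low dose, 4.91, 5.12 and 5.52 CPM at the medium dose and 7.39, 6.89 and 6.32 CPM at the high dose. IFIT2 stood at 4.73, 3.54 and 4.56 CPM at the low dose, 2.80, 3.24 and 3.43 CPM at the medium dose and 4.42, 4.66 and 4.59 CPM at the high dose. Both were called higher at the high than at the medium dose, OASL by 0.43 ± 0.12 (adjusted p = 0.0209) and IFIT2 by 0.55 ± 0.15 (adjusted p = 0.0177), and each call was lost in 4 of the 6 fits that left out 1 of their libraries (adjusted p 0.0518 to 0.169). They were the only genes of the list called higher with this extract in the comparisons made.

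High against medium dose called 9 genes lower and 2 higher (2.63% of all genes tested lower and 2.46% higher), led by UBE2L6 (-1.73 ± 0.41, adjusted p = 0.00495), CMPK2 (-1.58 ± 0.29, adjusted p = 0.000147) and MX1 (-0.79 ± 0.17, adjusted p = 0.00173). Medium against low dose called 9 lower and 0 higher (1.57% of all genes lower and 1.78% higher), led by OAS2 (-0.96 ± 0.21, adjusted p = 0.00226), IFIT1 (-0.82 ± 0.16, adjusted p = 0.000382), MX1 (-0.77 ± 0.15, adjusted p = 0.00069) and IRF9 (-0.73 ± 0.12, adjusted p = 5.89e-05). Without low replicate 3 the 9 became 3. CMPK2 fell at the upper step, with 1.97, 1.85 and 2.06 CPM at the medium dose, while IRF9 stood at 7.41, 9.37 and 10.1 CPM at the medium dose and was not called at the upper step. Whether the steps differ was not tested.

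Against vehicle, the high dose called 29 genes lower and 0 higher (10.6% of all genes tested lower), with a median of -0.56, and the medium dose 8 lower (3.08% of all genes). The 2 comparisons of the high dose share its libraries, and 27 genes were called in both, 27 of the 29 against vehicle and 27 of the 34 against the low dose. Against Pinelliae Tuber, given at the same dose and in the same code set, Scutellariae Radix high called 28 genes lower and 0 higher (8.77% of all genes lower), with MX1 at -1.43 ± 0.16 (adjusted p = 1.79e-09). At the medium dose against vehicle OAS2, MX1, IFITM2 and PLSCR1 lost their calls without the 4 libraries that stand apart (adjusted p 0.0529 to 0.18).

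**Figure D4:**
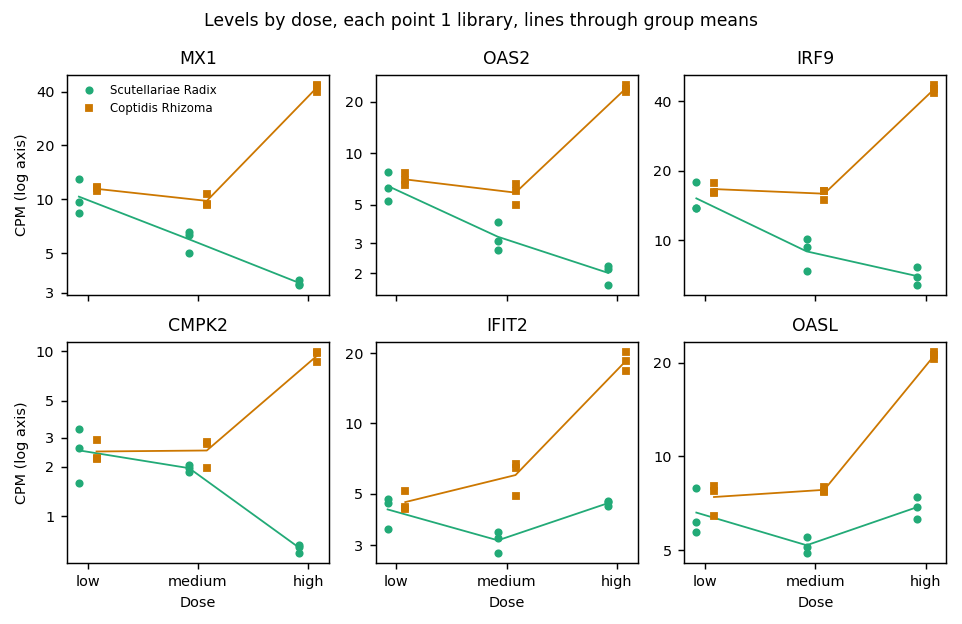
CPM on a log axis of 6 genes at the low, medium and high doses of Scutellariae Radix (20, 100 and 500 µg/mL, circles) and Coptidis Rhizoma (11.6, 58 and 290 µg/mL, squares), each point 1 library, with lines through the group means. MX1, OAS2, IRF9 and CMPK2 are lowest at the high dose of Scutellariae Radix, IFIT2 and OASL are not, and all 6 are highest at the high dose of Coptidis Rhizoma.

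The extracts of Scutellariae Radix and Coptidis Rhizoma moved the list in opposite directions, and the difference between their high-against-low changes was tested as an interaction term. It was called for 41 of the 41 genes, all lower in Scutellariae Radix, where 20.9% of all genes tested were called lower and 17.8% higher. The doses of the extracts differ. MX1 changed by -1.57 ± 0.17 with Scutellariae Radix and by 1.80 ± 0.13 with Coptidis Rhizoma, a difference of -3.36 ± 0.21 (adjusted p = 2.18e-18).

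Part of the list was lower at the high than at the low dose of both gingers. With dried ginger, high against low dose called 8 genes lower and 0 higher, where 0.397% of all genes tested were called lower and 0.518% higher. All 8 were also called lower with Scutellariae Radix, as were 34 of the 41, so this overlap does not set them apart. They were OAS2, at 3.55, 5.08 and 5.05 CPM against 7.74, 8.38 and 9.03 CPM at the low dose (log2 change -0.85 ± 0.20, adjusted p = 0.0175), DDX60 (-0.63 ± 0.16), HERC6 (-0.59 ± 0.12, adjusted p = 0.00415), PARP9 (-0.46 ± 0.09, adjusted p = 0.000997), PARP14 (-0.40 ± 0.09), IFIH1 (-0.39 ± 0.09), OAS1 (-0.37 ± 0.09) and PLSCR1 (-0.26 ± 0.06). PARP9 stood at 34.2, 36.3 and 36.6 CPM at the high dose, against 51.5, 51.5 and 47.5 CPM at the low dose, with no overlap. With vehicle it averaged 39.6 CPM, nearer the high dose (log2 change -0.16 ± 0.09 against vehicle) than the low dose (0.30 ± 0.09). Low-dose libraries of dried ginger lay above those of vehicle without overlap for 14 genes and below for 0, against 10.6% and 6.28% of all genes. None of the list was called there. The median of the 41 genes was -0.32, and the fitted change was below 0 for 40 of the 41, all but IFITM2 (0.02, not called). The factors were not called, with -0.32 ± 0.12 for IRF9, -0.06 ± 0.08 for STAT2 and -0.07 ± 0.10 for IRF7. Leaving out replicate 1 of the high dose gave 2 calls, leaving out replicate 1 or 2 of the low dose gave 2 or 3, and leaving out the 4 libraries that stand apart gave 8.

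With fresh ginger, high against low dose called 3 genes lower and 0 higher (0.584% of all genes tested lower and 1.21% higher). IFIT1 stood at 5.00, 6.08 and 4.10 CPM at the high dose, against 7.44, 7.68 and 8.22 CPM at the low dose (log2 change -0.63 ± 0.17, adjusted p = 0.0317). OAS1 stood at 23.9, 24.5 and 23.6 CPM, against 27.9, 32.5 and 34.2 CPM (log2 change -0.40 ± 0.09, adjusted p = 0.0113), and TRIM21 changed by -0.33 ± 0.08 (adjusted p = 0.0189). The groups did not overlap in these genes, though leaving out replicate 1, 2 or 3 of the low dose gave 1, 8 or 0 calls, and leaving out replicate 3 of the high dose 0. Against vehicle, IFIT1 (-0.57 ± 0.16, adjusted p = 0.0471), TRIM21 (-0.28 ± 0.08, adjusted p = 0.0433) and PLSCR1 (-0.25 ± 0.06, adjusted p = 0.0176) were called lower at the high dose (0.771% of all genes lower), and 0 without the 4 libraries that stand apart or without vehicle replicate 1. Dried ginger high called 0 genes against vehicle (0.789% of all genes called; 6 at an unadjusted p under 0.05; DESeq2 0) and 0 against fresh ginger high (0.0% of all genes called; 5 at an unadjusted p under 0.05; DESeq2 0), with a median log2 difference of 0.10 between the gingers.

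Pinelliae Tuber and Zizyphi Fructus gave 0 calls in the list at any dose, against vehicle or between doses, by edgeR with the low-count filter, and few among all genes. Without that filter edgeR called 3 genes of the list with Pinelliae Tuber and 9 with Zizyphi Fructus for high against low, and 3 and 0 at the high dose against vehicle. With only the libraries compared in the fit, it called 1 with Pinelliae Tuber for high against low. High against low, 0.0421% of all genes were called with Pinelliae Tuber and 0.0482% with Zizyphi Fructus, in either direction, and at the high dose against vehicle 0.187% and 0.0181%. High against low dose, Pinelliae Tuber had a median of -0.18 with 11 genes at an unadjusted p under 0.05 (DESeq2 0). Zizyphi Fructus had a median of -0.17 with 14 such genes, and DESeq2 called 5. The smallest adjusted p for Zizyphi Fructus was that of PARP9 (log2 change -0.30, adjusted p = 0.062), and without high replicate 1 or 2 of that extract 10 or 7 genes were called. At the low doses against vehicle, edgeR called 0 genes of the list with any of the 6 extracts, and DESeq2 called 4, all with Zizyphi Fructus. Without the low-count filter edgeR called 29 over the 6 extracts, 11 of them with Zizyphi Fructus and 0 with fresh ginger. Of all genes, edgeR called 0.397% with Coptidis Rhizoma, 0.126% with Scutellariae Radix, 0.012% each with Pinelliae Tuber and Zizyphi Fructus and 0.0% with the gingers.

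In comparisons with the medium dose, edgeR's calls in the list, with the low-count filter, came from Scutellariae Radix and Coptidis Rhizoma. For fresh ginger, dried ginger, Pinelliae Tuber and Zizyphi Fructus, high against medium called 0 genes of the list, where 0.458%, 0.247%, 0.0361% and 0.0301% of all genes were called, with 16, 18, 0 and 12 genes of the list at an unadjusted p under 0.05 and 0, 1, 0 and 3 called by DESeq2. Medium against low called 0 as well, with 0.0% of all genes in each of these 4 extracts and 0, 3, 0 and 0 genes at an unadjusted p under 0.05 (DESeq2 0 in each). The medium dose against vehicle called 0, where 0.0%, 0.012%, 0.0482% and 0.0% of all genes were called, with 2, 4, 6 and 15 genes at an unadjusted p under 0.05 and 0, 0, 0 and 4 called by DESeq2. Without the filter edgeR called 2, 9, 0 and 9 genes of the list in these 4 extracts for high against medium, 1, 0, 0 and 0 for medium against low and 1, 2, 2 and 8 for medium against vehicle.

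**Figure D5:**
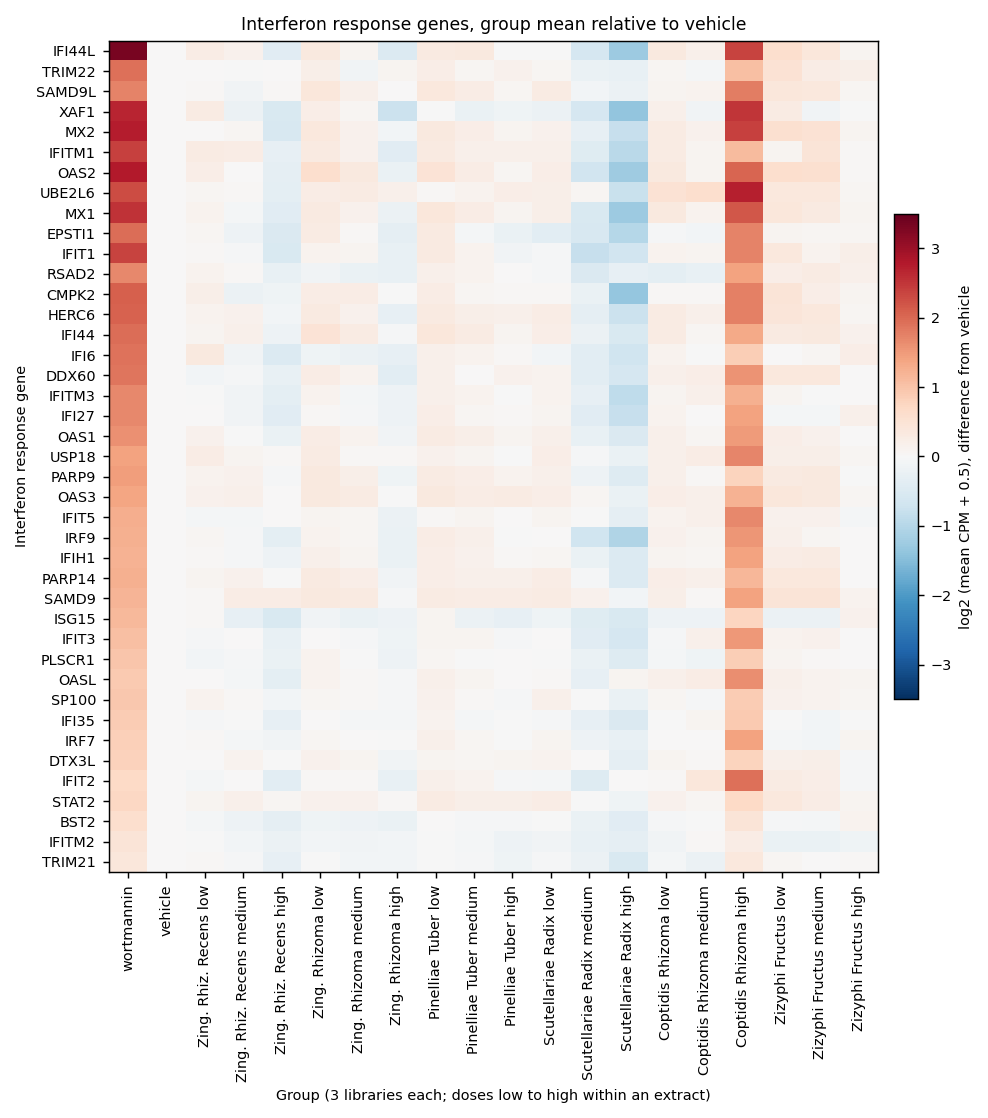
Log2 of the mean CPM + 0.5 in each group (columns) minus that of vehicle, for the 41 genes (rows, ordered by their change with wortmannin); red is above and blue below vehicle. Every gene is red with wortmannin and with Coptidis Rhizoma at the high dose, and most are blue with Scutellariae Radix at the high dose.

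Across the 41 genes, the change with wortmannin and that with Coptidis Rhizoma high against low, which share no library, had Pearson's r = 0.74 and Spearman's rho = 0.72. Wortmannin and Scutellariae Radix high against low had r = -0.87 and rho = -0.88: the genes with the largest rise under the inhibitor had the largest decrease with the extract. The basal level per kilobase in the low-dose groups had r = -0.80 and rho = -0.73 with the wortmannin change. Within the list, genes of low basal level changed most. The filter on low counts can favour such a relation. TRIM22 and SAMD9L averaged 0.169 and 0.181 CPM with vehicle, and genes that low which rise in no group may fail the filter. Its part in these correlations was not tested. All of these correlations are descriptions across genes, which are not independent replicates, share the libraries of each group and are measured more loosely where counts are few. Over the 20 group means of log2 (CPM + 0.5), the genes whose pattern was most like that of IFI44L were HERC6, MX1 and OAS2 (r = 0.99 for each). Least like it were IFIT2 (r = 0.76), OASL (0.83) and IRF7 (0.87).

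Upstream genes outside the list were taken from lists of the pathway. IRF1, a factor that interferon gamma also raises, changed by 0.09 ± 0.06 (adjusted p = 0.316) with wortmannin, by 0.95 ± 0.06 (adjusted p = 2.12e-19) with Coptidis Rhizoma high against low and by -0.29 ± 0.06 (adjusted p = 0.00046) with Scutellariae Radix high against low. It was thus called in both extracts but not with wortmannin; whether the changes differ was not tested.

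Counts of called genes in these lists stand beside the shares of all genes called higher and lower, which were 9.72% and 10.8% with wortmannin, 27.1% and 25.3% with Coptidis Rhizoma high against low and 7.92% and 8.42% with Scutellariae Radix high against low. Of 13 tested sensors and adaptors, 8 were higher and 0 lower with wortmannin, 7 and 1 with Coptidis Rhizoma, and 1 and 6 with Scutellariae Radix. The RNA helicase RIGI changed by 1.56 ± 0.09 (adjusted p = 1.46e-18) with wortmannin and by -0.46 ± 0.10 (adjusted p = 0.000454) with Scutellariae Radix. Its relative DHX58 changed by 1.46 ± 0.12 (adjusted p = 2.73e-13), 1.41 ± 0.11 (adjusted p = 3.58e-15) and -0.61 ± 0.14 (adjusted p = 0.00102) in the order above, and the endosomal receptor TLR3 by 0.74 ± 0.11 (adjusted p = 1.29e-06), 1.44 ± 0.10 (adjusted p = 6.18e-18) and -1.08 ± 0.13 (adjusted p = 3.81e-09). MAVS, the adaptor of the RNA sensors, and the kinase TBK1 were called in none of the 3. Of 9 receptor and kinase genes, 1 was higher with wortmannin (JAK2), 6 higher and 1 lower with Coptidis Rhizoma, and 1 higher and 1 lower with Scutellariae Radix; the counts of 1 are near the shares of all genes. JAK1 changed by 1.00 ± 0.06 (adjusted p = 5.77e-20) with Coptidis Rhizoma and by 0.15 ± 0.06 (adjusted p = 0.0791) with wortmannin. Of 5 tested brakes on the pathway, edgeR and DESeq2 each called 0 with wortmannin (1 at an unadjusted p under 0.05 in edgeR), and 2 were higher with Coptidis Rhizoma and 1 with Scutellariae Radix, counts too small to set apart from the shares of all genes. SOCS1, which shuts off the receptor's kinases, changed by 1.01 ± 0.43 (adjusted p = 0.114), 1.10 ± 0.39 (adjusted p = 0.0164) and -1.83 ± 0.61 (adjusted p = 0.0592) in the order above. IFNE, the ligand gene that could be tested, was not called in any of them (0.35 ± 0.14, adjusted p = 0.0614 with wortmannin).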

How the data were processed

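Gene-level expected counts of 60 RNA-seq libraries of HT29 cells were used as the authors deposited them; they are RSEM estimates, and 8.75% of the values were not whole. Per the submitters' processing notes, reads were checked with FastQC 0.11.9, trimmed with Trim Galore 0.6.5, aligned with STAR 2.7.3a and counted with RSEM 1.3.3 on GRCh38; the annotation release and strand setting are not given in the sources used here. The table holds 210 further columns, not used here. Library totals were 11.1 to 34.4 M counts (median 23.4 M), and few counts limit the precision of the genes of low level.

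Counts were rounded and fitted with edgeR 4.0.16 in R 4.3.3 (filterByExpr, TMM, robust quasi-likelihood, 1 coefficient per group over all 60 libraries); the script was tested on simulated data. P-values were adjusted by Benjamini-Hochberg over the 16608 genes tested in each comparison. Standard errors are the log2 change divided by the root of the F statistic. Alternatives were DESeq2 1.42.0, its size factors, no filter, only the libraries compared, each library left out, the 4 libraries that stand apart left out, and a replicate block; the last comparison reported in full, wortmannin against Coptidis Rhizoma, was added after the values were seen.

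The members and lists were chosen with earlier results of these data known. Full values are given for the 12 genes with the largest change with wortmannin, for up to 8 called, non-overlapping genes in each direction of other comparisons, and for the IFITM genes, ISG15, USP18 and the 3 factors. Symbols were matched for 56558 of 60675 identifiers, and positions are those of GENCODE 29. No 2 libraries agreed within sampling noise.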

Additional observations from a re-analysis of the deposited data

Results flagged for a closer look

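The high-against-low change differed between Scutellariae Radix and Coptidis Rhizoma, as tested by the interaction term in edgeR's quasi-likelihood fit, for 41 of the 41 genes. The log2 change in Scutellariae Radix minus that in Coptidis Rhizoma was -5.22 ± 0.69 (adjusted p = 2.59e-08) for XAF1, -4.91 ± 0.71 (adjusted p = 1.53e-07) for SAMD9L, -4.56 ± 0.51 (adjusted p = 3.37e-10) for IFI44L and -4.39 ± 0.48 (adjusted p = 1.15e-10) for UBE2L6. It was -3.84 ± 0.58 (adjusted p = 3.22e-07) for EPSTI1, -3.76 ± 0.35 (adjusted p = 7.5e-13) for CMPK2, -3.64 ± 0.36 (adjusted p = 7.5e-12) for MX2 and -3.58 ± 0.82 (adjusted p = 0.000349) for TRIM22. XAF1, SAMD9L, IFI44L and TRIM22 had few counts in at least 1 of the 4 groups. UBE2L6 and EPSTI1 were also of low level, at 1.02 and 0.899 CPM averaged over the low-dose groups, and were lower still with Scutellariae Radix high. The sizes of these differences are loosely fixed. The top doses differ (500 µg/mL of Scutellariae Radix and 290 µg/mL of Coptidis Rhizoma), and the extracts lie in different code sets.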

How the results depend on the processing

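The 41 calls for wortmannin, for Coptidis Rhizoma high against low and for the interaction were 39 to 41 in every setting run, with 39 for wortmannin in DESeq2. Without the filter on low counts, 10 genes were called for fresh ginger, 17 for dried ginger, 3 for Pinelliae Tuber and 9 for Zizyphi Fructus, high against low. In that setting high doses against vehicle gave 10 for fresh ginger, 1 for dried ginger and 3 for Pinelliae Tuber, dried against fresh ginger 2, and vehicle against the low doses 9. Summed over the 6 extracts it gave 80 for high against medium (51 with the filter), 15 for medium against low (9), 33 for medium against vehicle (9) and 29 for low against vehicle (0). DESeq2 called 6 for fresh ginger and 5 for Zizyphi Fructus high against low, 14 for medium and 4 for low doses against vehicle. With only the libraries compared in the fit, the counts were 0 for fresh ginger, 4 for dried ginger and 1 for Pinelliae Tuber high against low, 0 for fresh ginger high against vehicle and 2 for medium doses against vehicle. Without the 4 libraries that stand apart they were 0 for fresh ginger high against vehicle and 17 for medium against low. The cause was not tested.

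Leaving out each library in turn gave 0 to 8 for fresh ginger, 2 to 8 for dried ginger, 0 to 10 for Zizyphi Fructus, 26 to 33 for Scutellariae Radix and 40 to 41 for Coptidis Rhizoma, high against low. It gave 0 to 4 for fresh ginger, 26 to 31 for Scutellariae Radix and 39 to 41 for Coptidis Rhizoma at the high dose against vehicle, and 18 to 21 (23 with all libraries) for wortmannin against Coptidis Rhizoma high. For the sums it gave 47 to 59 for high against medium, 3 to 10 for medium against low and 3 to 14 for medium against vehicle, and 25 to 30 for Scutellariae Radix against Pinelliae Tuber. Single genes that were not called changed sign in it: the log2 change ranged over -0.0044 to 0.043 for IFITM2 and -0.15 to 0.044 for ISG15 with dried ginger high against low, -0.18 to 0.032 for IRF7 and -0.22 to 0.0016 for ISG15 with Scutellariae Radix high against medium, and -0.075 to 0.031 for STAT2 with its medium dose against vehicle.

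The replicate block changed no count by over 1.5 times: with it 41 genes were called for wortmannin, 34 for Scutellariae Radix and 41 for Coptidis Rhizoma high against low, 3 and 8 for fresh and dried ginger, 3 and 29 for fresh ginger and Scutellariae Radix against vehicle, and 53, 11, 10 and 0 for the sums in the order above. Libraries with the same replicate number deviated together in 1 of the 40 comparisons checked, fresh ginger low against vehicle (r = 0.50, 0.19 and 0.16), whose replicates 1 both stand apart; there 0 genes of the list were called with or without the block. In the other comparisons the numbers were not taken to pair samples.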

Other observations

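Interferon-induced genes outside the 41 were taken from a list of 20, of which 19 were tested. Wortmannin called 11 higher and 0 lower, Coptidis Rhizoma high against low dose 13 higher and 2 lower, and Scutellariae Radix high against low dose 1 higher and 4 lower. Of all genes tested, 9.72% were called higher and 10.8% lower with wortmannin, 27.1% and 25.3% with Coptidis Rhizoma and 7.92% and 8.42% with Scutellariae Radix. GBP1, a GTPase that coats intracellular bacteria, followed the 41: it changed by 1.65 ± 0.22 (adjusted p = 9.92e-08) with wortmannin, 1.61 ± 0.20 (adjusted p = 2.86e-09) with Coptidis Rhizoma and -1.25 ± 0.27 (adjusted p = 0.000532) with Scutellariae Radix. GBP2, its relative, changed by 0.76 ± 0.09 (adjusted p = 1.01e-08) with wortmannin but by -0.88 ± 0.10 (adjusted p = 5.1e-11) with Coptidis Rhizoma and -0.57 ± 0.10 (adjusted p = 1.3e-05) with Scutellariae Radix.

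ISG20, an exonuclease of single-stranded RNA, changed by 2.28 ± 0.14 (adjusted p = 2.68e-19) with Coptidis Rhizoma and by 0.21 ± 0.17 (adjusted p = 0.397) with wortmannin. CD274, which encodes the checkpoint ligand PD-L1, changed by 1.54 ± 0.22 (adjusted p = 4.75e-08) with Coptidis Rhizoma and by 0.87 ± 0.25 (adjusted p = 0.00912) with Scutellariae Radix, and was not called with wortmannin (0.20 ± 0.27, adjusted p = 0.654). It was the only gene of the 19 called higher with Scutellariae Radix, a count near the 7.92% of all genes called higher there. TRIM25, the ubiquitin ligase that activates RIG-I, changed by 1.13 ± 0.07 (adjusted p = 1.2e-20) with Coptidis Rhizoma and by 0.41 ± 0.07 (adjusted p = 5.94e-06) with wortmannin, and HERC5, the human ligase for ISG15, by 1.51 ± 0.30 (adjusted p = 3.22e-05) with Coptidis Rhizoma and by 0.52 ± 0.38 (adjusted p = 0.362) with wortmannin.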
